A study of Mus musculus with 2 samples.

Results

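The 6 neurogenic basic helix-loop-helix (bHLH) genes Neurod1, Neurod2, Neurod4, Neurod6, Neurog2 and Bhlhe22 were examined among 21911 protein-coding gene symbols of the GENCODE M21 annotation. They were chosen by name. All 6 were found, each with 1 annotated transcript. The assay was DNase-seq: nuclei are treated with the nuclease DNase I and the cut ends are sequenced, and stretches rich in cuts are accessible chromatin. There was 1 group, hippocampal tissue from B6CASTF1/J males at an age of 10 days, which are first-generation hybrids of a C57BL/6J and a CAST/EiJ parent, with 2 libraries numbered replicate 1 and replicate 2 in the labels. The labels give 3 males for each tissue sample and the same donor label for both, and no second condition, so each value below is a description with both libraries side by side and no test. Alleles of the hybrid were not separated. The labels name the tissue a layer of hippocampus and give no sorting of cells, so fewer open cells and less opening per cell cannot be told apart.

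bHLH transcription factors bind DNA as pairs, usually a tissue-restricted factor with a widely expressed E protein. The sequence they contact is the E-box, CANNTG, and factors differ in the middle and flanking letters they prefer. NEUROG2 is a proneural factor that commits dividing cells of the dorsal forebrain to the excitatory neuron fate. The NEUROD factors act later, in differentiating and mature excitatory neurons. BHLHE22 is a repressor of postmitotic projection neurons that works with PRDM8. In the hippocampus NEUROD1 is known for the granule neurons of the dentate gyrus, which in mice are still being added in the second postnatal week, and NEUROD2 and NEUROD6 for pyramidal neurons.

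In mm10 coordinates Neurod1 is annotated on the minus strand at chr2:79452521-79456751, Neurod2 on the minus strand at chr11:98325415-98329648, Neurod4 on the minus strand at chr10:130268152-130280240 and Neurod6 on the minus strand at chr6:55677822-55681263. Neurog2 lies on the plus strand at chr3:127633135-127635631 and Bhlhe22 on the plus strand at chr3:18054174-18057517. Bhlhe22 has 1 exon and the other genes have 2. Distances below are counted from the first base of the gene, in the direction of transcription.

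The accessible region at the start of 4 of the genes held an E-box with the same 3' neighbours, and the stretches of 3 of them are shown because this is the sequence feature the 4 open promoters had in common. Each runs 5' to 3' on the strand of its gene in mm10, 30 bases long, and capitals mark the matched letters CATATGGC or CAGATGGC.
Neurod1, chr2:79456860-79456889: accgggaagacCATATGGCgcatgccgggg
Neurod2, chr11:98329644-98329673: cgtgccaagccCATATGGCctggcatagag
Neurod6, chr6:55681121-55681150: gacgtcactagCAGATGGCatgggtaccag

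Longer stretches show where the other E-boxes of these promoters lie. The 250 bases upstream of the annotated start of Neurod1 and Neurod2 follow on the strand of the gene, with every CANNTG in capitals.
Neurod1, chr2:79456752-79457001: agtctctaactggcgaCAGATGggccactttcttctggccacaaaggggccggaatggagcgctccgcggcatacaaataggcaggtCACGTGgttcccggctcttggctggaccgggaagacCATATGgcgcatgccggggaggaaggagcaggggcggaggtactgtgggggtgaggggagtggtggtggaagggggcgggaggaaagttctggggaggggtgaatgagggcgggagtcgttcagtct
Neurod2, chr11:98329649-98329898: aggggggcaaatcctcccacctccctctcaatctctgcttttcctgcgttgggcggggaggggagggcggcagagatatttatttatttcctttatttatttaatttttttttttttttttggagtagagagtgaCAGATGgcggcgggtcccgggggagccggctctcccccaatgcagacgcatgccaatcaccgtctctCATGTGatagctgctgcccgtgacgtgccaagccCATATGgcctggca

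Of the genes' starts, 4 of 6 were open in both libraries, beside 59.3% of all coding genes. A start was called open where a region of the shorter of the 2 deposited region lists lay within 1000 bp. In single libraries 4 of 6 were open in replicate 1 and 5 of 6 in replicate 2, against 59.6% and 64% of coding genes. The shorter lists held 54546 regions in replicate 1 and 74278 in replicate 2, and the longer lists 94187 and 131213. In the longer lists all 6 starts had a region in both libraries, against 64.4% of coding genes (64.9% in replicate 1 and 68.4% in replicate 2). Each region carries a height, the authors' own value on the scale of its library, and no source used here gives its normalization. Among the open members the median height was 1.68 in replicate 1 and 1.86 in replicate 2, below the medians of 2.59 and 3.14 over all open coding genes.

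**Figure D1:**
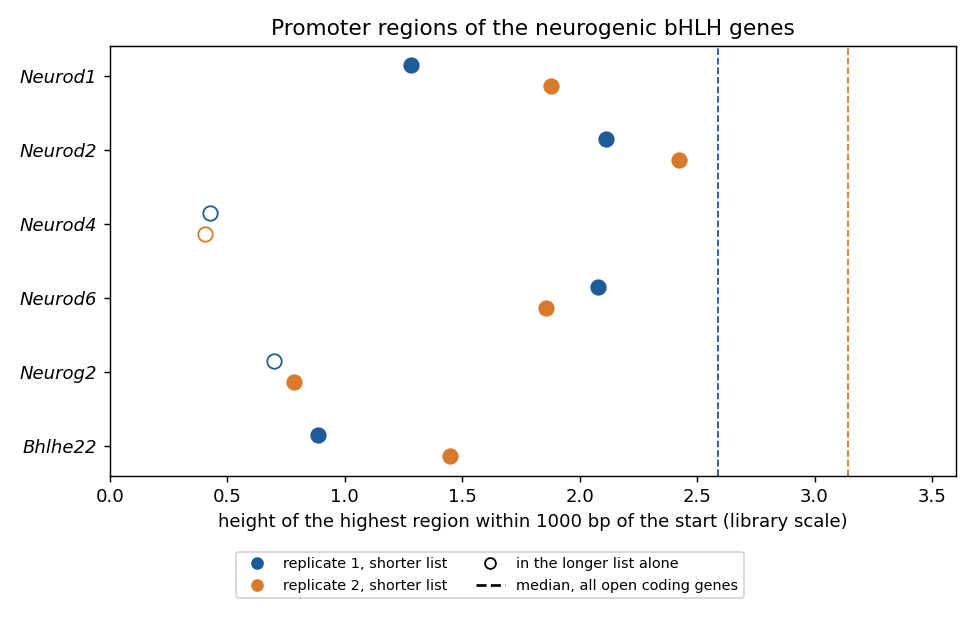
Height of the highest region within 1000 bp of the start of each gene (x axis, library scale), for replicate 1 (blue) and replicate 2 (orange). Filled points are in the shorter lists and open points in the longer lists alone, and dashed lines give the median over all open coding genes of each library. All member points lie left of the dashed line of their own library, with Neurod2 the nearest to it and Neurod4 the farthest.

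By the mean of the libraries the highest promoter regions belonged to Neurod2 and Neurod6. Pairs of values below give replicate 1 and then replicate 2. Neurod2, a factor of maturing excitatory neurons and their synapses, had a height of 2.11 in replicate 1 and one of 2.43 in replicate 2, or 2.27 ± 0.22 (SD, n = 2). Those values exceeded 39.7% and 37.6% of the open coding genes of each library. Neurod6, which marks pyramidal neurons, had heights of 2.08 and 1.86 (1.97 ± 0.16, SD, n = 2). Neurod2 was the higher of the pair in each library, and the ranges of mean ± SD overlap. Neurod6's region covered bases 23 to 222 downstream of the start, with identical edges in both libraries and all of it in the 5' untranslated region.

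Neurod1, needed for dentate granule neurons, had heights of 1.28 and 1.88 (1.58 ± 0.42, SD, n = 2). Its start is 34 bp from the start of a noncoding transcript of Cerkl on the same strand, and a single region of 407 shared bases covers both, so their opening cannot be told apart. Bhlhe22 followed with 0.886 and 1.45 (1.17 ± 0.40, SD, n = 2), which exceeded 9.93% and 20.3% of open coding genes. In replicate 2 the Bhlhe22 region was 980 bp wide and ran into the coding exon, against 216 bp in replicate 1. Neurod1 was above Bhlhe22 in each library, and in replicate 2 alone it was slightly above Neurod6. The range of Neurod1 overlaps that of both. These SDs include any difference in scale between the libraries.

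Neurog2 was open in replicate 2 alone, where a region of 31 bp, 364 to 394 bases upstream of the start, had a height of 0.787. Replicate 1 had a region there in its longer list alone, with a height of 0.698. Such a pattern, open in replicate 2 and not in replicate 1, was found in 4.75% of coding genes. Neurod4, a proneural-type factor of developing retina and brain, was open in neither shorter list, as were 35.6% of coding genes. Its start had weak regions in the longer lists, with heights of 0.427 and 0.404, and 1.28% of coding genes shared that pattern. The lowest false discovery rate (FDR) of the cut rate at any base within 1000 bp of the Neurod4 start was 0.00578 in replicate 1 and 0.00131 in replicate 2, while at the Neurod6 start it was 6.86e-10 and 4.1e-08.

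The order of the genes by CpG content differed from their order by promoter height. CpG islands, stretches where CG pairs are kept, are open in most tissues, and over all coding genes the share open in both libraries was 6.25% in the decile with the lowest CpG ratio and 95.4% in the decile with the highest. The ratio is the observed over the expected number of CG pairs in the 500 bp on each side of the start. Neurog2 had the highest ratio of the 6, 0.851, in decile 9 of coding genes, where 94.2% were open in both libraries. That it was not called open in both depends on the limit of 1000 bp. A Neurog2 region found in both shorter lists lay 1066 to 1245 bases downstream of the start. With a limit of 2500 bp, 5 of 6 starts were open in both. Neurod6 had a ratio of 0.205 and Neurod4 of 0.2, both in decile 3, where 20.7% were open in both. Neurod6 was open there and Neurod4 was not. Neurod1 (0.679), Bhlhe22 (0.638) and Neurod2 (0.455) stood in deciles where 88.9%, 81.3% and 64.1% of genes were open in both libraries.

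**Figure D2:**
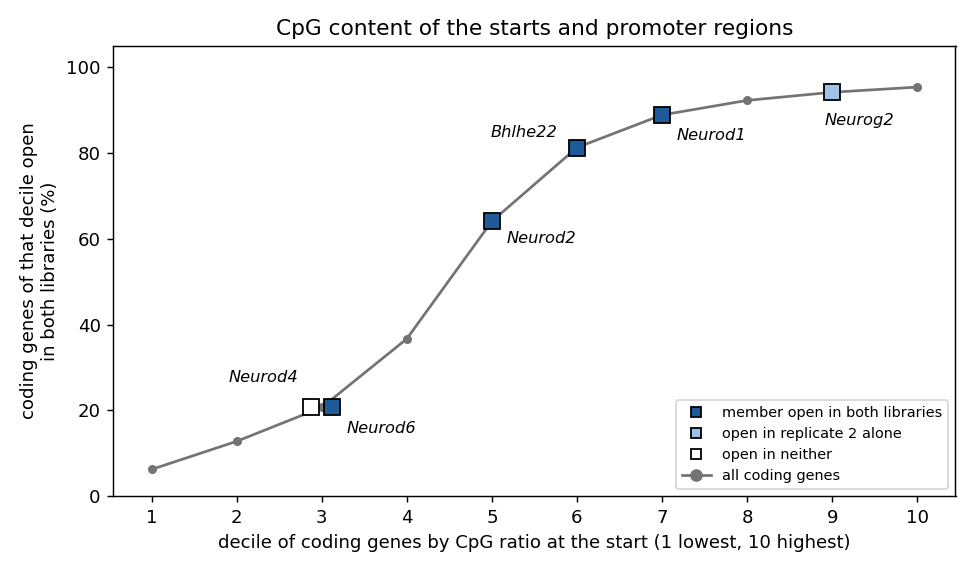
Share of coding genes open in both libraries (y axis, percent) by decile of the CpG ratio at the start (x axis, 1 lowest to 10 highest), as a grey line. Squares put each gene at its decile and their fill gives whether it was open in both libraries, in replicate 2 alone or in neither. Within 1000 bp Neurog2 is not open in both libraries in a decile at 94.2%, and Neurod6 is open in a decile at 20.7%. A Neurog2 region found in both libraries lies just outside that limit, 1066 to 1245 bases from the start.

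Beyond the starts, 10 accessible regions were found in both libraries in the gene bodies and the 10 kb on each side. These distal regions lie more than 1000 bp from any annotated start, and a region counts as shared where the 2 libraries' regions overlap by at least 1 bp. Neurod2 held 6 of them, Neurog2 held 2, Neurod4 and Bhlhe22 held 1 each, and Neurod1 and Neurod6 held 0. So 4 of 6 genes had at least 1, against 44.1% of coding genes. The mean was 1.67 per gene for the 6 and 0.922 for all coding genes. Counts of 6 or more were found in 2.16% of coding genes, and of 2 or more in 20.4%. Of Neurod2's 6, those at 8833 to 9076 and 9145 to 9240 bases upstream met the same region of replicate 2.

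**Figure D3:**
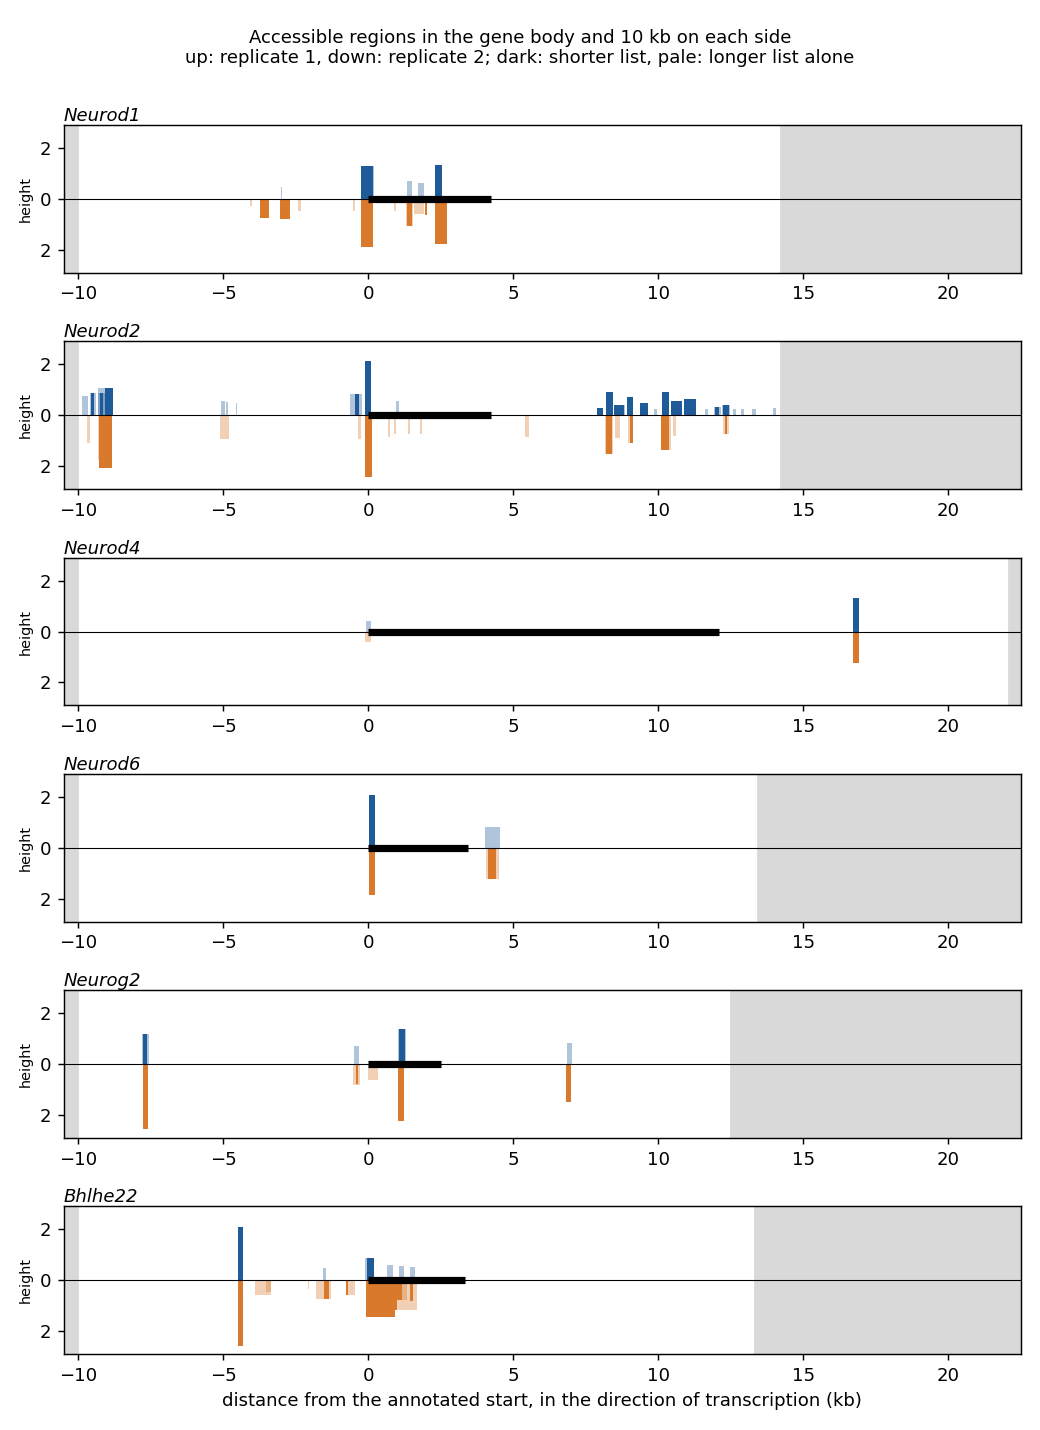
Accessible regions around each gene by distance from its annotated start in the direction of transcription (x axis, kb). Bars give region height (y axis, library scale) upward for replicate 1 and downward for replicate 2, dark for the shorter and pale for the longer lists, the black bar is the gene body, and grey marks DNA outside the 10 kb flanks. Neurod2 has a cluster of regions beyond its 3' end, with 10 dark bars in replicate 1 and 4 in replicate 2, while Neurod4 has 1 region far from its start with like heights in both libraries.

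The most even distal regions belonged to Bhlhe22 and Neurod4, whose edges were identical in both libraries. Bhlhe22's lay 4314 to 4493 bases upstream of the start, with heights of 2.08 in replicate 1 and 2.59 in replicate 2, higher than at its own promoter in each library. Those heights exceeded 87.9% and 89.9% of all distal regions. Neurod4's lay 16720 to 16919 bases from the start, past the end of this gene of 12089 bp, with heights of 1.30 and 1.25, above 68.6% and 68.2% of distal regions. It is thus a region without a promoter region of the same list beside it. Both sequences are given on the strand of the gene with CANNTG in capitals.
Bhlhe22 upstream region, chr3:18049681-18049860: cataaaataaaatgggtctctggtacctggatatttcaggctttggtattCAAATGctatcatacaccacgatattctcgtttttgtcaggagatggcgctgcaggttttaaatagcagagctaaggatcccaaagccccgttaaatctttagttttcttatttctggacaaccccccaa
Neurod4 downstream region, chr10:130263321-130263520: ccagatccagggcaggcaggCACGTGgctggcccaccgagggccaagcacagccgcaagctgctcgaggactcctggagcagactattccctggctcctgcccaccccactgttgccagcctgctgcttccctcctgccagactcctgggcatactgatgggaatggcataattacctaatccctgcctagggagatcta

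At Neurog2 the open DNA lay away from the start. A region in the coding exon, 1066 to 1245 bases downstream of the start, had heights of 1.40 in replicate 1 and 2.22 in replicate 2. A region 7628 to 7757 bases upstream had 1.17 and 2.53. Another, 6846 to 7005 bases downstream, was in the shorter list of replicate 2 at 1.49 and in the longer list alone of replicate 1 at 0.823. Each of the 3 was higher in each library than any region near the start. The coding-exon and upstream sequences follow, on the strand of the gene and with CANNTG in capitals. The coding one holds CATCTG, which is CAGATG on the other strand.
Neurog2 coding-exon region, chr3:127634201-127634380: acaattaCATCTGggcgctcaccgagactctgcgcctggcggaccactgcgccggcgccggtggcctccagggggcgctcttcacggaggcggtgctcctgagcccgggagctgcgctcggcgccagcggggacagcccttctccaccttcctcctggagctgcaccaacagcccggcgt
Neurog2 upstream region, chr3:127625378-127625507: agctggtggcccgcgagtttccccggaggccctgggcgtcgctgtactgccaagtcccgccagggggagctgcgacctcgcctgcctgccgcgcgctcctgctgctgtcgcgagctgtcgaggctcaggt

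Neurod1 also had a region in its coding exon, 2291 to 2530 bases downstream of the start, with heights of 1.35 and 1.76, about as high as its promoter region. It is counted with the promoter regions because it lies within 1000 bp of the start of Gm26755, a long noncoding RNA on the opposite strand that starts 2766 bp inside the locus. All 5 of its footprints in replicate 1 met a footprint of replicate 2. At the Neurod1 promoter 2 of 4 did, at Neurod4's distal region 1 of 5 and at Bhlhe22's upstream region 3 of 3. No such share was computed over all regions. Regions at Neurod1's intron and upstream side had heights of 0.743 to 1.07 in the shorter list of replicate 2. The corresponding list of replicate 1 had 0 distal regions there. Of the 3 in replicate 2, the longer list of replicate 1 had 2. Neurod6 had 1 distal region, just past its 3' end, in the shorter list of replicate 2 at 1.23 and in the longer list alone of replicate 1 at 0.817.

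Which library had more bases of low FDR depended on the gene and on the window, and no share over all coding genes was computed. Bases with a listed FDR of at most 0.001 in the gene body plus 10 kb numbered 654 in replicate 1 and 2575 in replicate 2 at Neurod1, 661 and 1912 at Bhlhe22, 344 and 923 at Neurog2, and 257 and 506 at Neurod6. At Neurod4 there were 294 in each, and at Neurod2 4081 in replicate 1 and 1371 in replicate 2. Within 1000 bp of the start Neurod6 had 256 and 249. Within 50 kb Neurod4 had 495 and 825, and Neurod2 had 6856 and 5776.

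The number of distal regions at Neurod2 also differed, with 13 in the shorter list of replicate 1 and 6 in that of replicate 2. In the same window 4.38% of coding genes had more distal regions in replicate 1 than in replicate 2. This difference at Neurod2 was examined because earlier results of these data had shown it, so the share is a description and no support. In both libraries the regions lay in 2 places, about 9 kb upstream and beyond the 3' end. The upstream region at 8833 to 9076 bases had heights of 1.09 in replicate 1 and 2.08 in replicate 2. In the cluster beyond the 3' end, the shared region at 8211 to 8392 bases from the start had 0.918 and 1.51, and that at 10128 to 10365 bases had 0.924 and 1.38. All 7 shared regions of the locus, promoter included, were higher in replicate 2, as were 81.4% of all shared regions, with a median log2 ratio of replicate 2 over replicate 1 of 0.72, beside 0.33 over all 48179 shared regions. The shared parts at 8833 to 9076 and 9145 to 9240 bases upstream met the same region of replicate 2. Its height of 2.08 thus enters both ratios. Heights are on each library's own scale.

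Beyond the 3' end, region heights in replicate 1 were 0.302 to 0.924 over 10 regions, with lowest FDRs from 6.36e-29 to 0.000103. The 5 regions of the gene body and upstream side in the same list were 0.842 to 2.11 high with lowest FDRs from 7.97e-18 to 0.000446. The region of 2.11 at the promoter thus had a weaker FDR than regions under 1 beyond the 3' end of the same library. In the longer list alone, 5 regions of the body and upstream side with heights of 0.484 to 0.748 had lowest FDRs of 0.00258 to 0.0295. In replicate 2 the regions of the shorter list beyond the 3' end were 0.732 to 1.51 high, with lowest FDRs from 1.93e-10 to 0.000376. What sets the FDR at a given height was not tested.

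**Figure D4:**
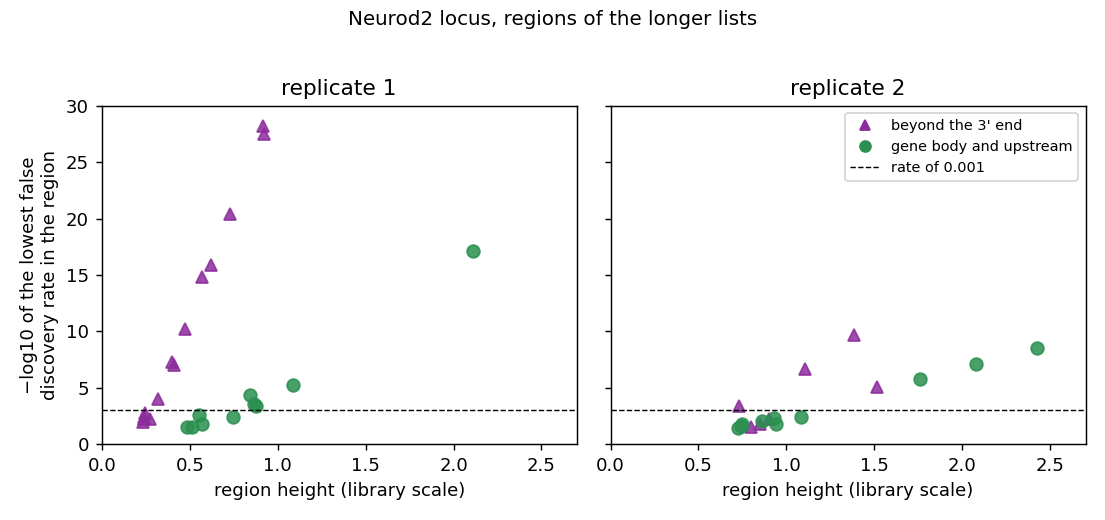
Regions of the longer lists in the Neurod2 gene body plus 10 kb, by height (x axis, library scale) and −log10 of the lowest FDR of the cut rate inside the region (y axis). Purple triangles lie beyond the 3' end, green circles in the body and upstream, and the dashed line is an FDR of 0.001. In replicate 1 the triangles reach a lowest FDR of 6.36e-29 at heights under 1, while the circles need a height of 2.11 for 7.97e-18, and in replicate 2 both kinds lie closer together.

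Within 50 kb of the genes Neurod2 had 12 shared distal regions, a count reached by 0.685% of coding genes, Neurod4 and Neurog2 had 2 each, and Neurod1, Neurod6 and Bhlhe22 had 1 each. At least 1 was found at 72.9% of coding genes. The highest of them lay 13013 to 13252 bases upstream of Neurod2, with heights of 6.23 in replicate 1 and 9.77 in replicate 2, above 99.8% of distal regions in replicate 1. The next highest distal region there, 15713 to 15852 bases upstream of Neurod2, had 2.58 and 3.71. Neurod1's only one, 42650 to 42829 bases upstream, had 1.73 and 2.81, and Neurod6's, 36058 to 36217 bases upstream, had 1.43 and 1.84. The region at 13013 bases lies between Neurod2 and Ppp1r1b, the gene of the striatal signalling protein DARPP-32, whose start is 18756 bp upstream of that of Neurod2. All 5 footprints of this region in replicate 1 met one in replicate 2. So did 2 of 2 in the region at 15713 bases, 2 of 4 in Neurod1's far region and 2 of 3 in Neurod6's. The sequence of the region at 13013 bases is shown because no other region within 50 kb of the 6 genes was as high. It is on the strand of Neurod2 with CANNTG in capitals.
Neurod2 far upstream region, chr11:98342661-98342900: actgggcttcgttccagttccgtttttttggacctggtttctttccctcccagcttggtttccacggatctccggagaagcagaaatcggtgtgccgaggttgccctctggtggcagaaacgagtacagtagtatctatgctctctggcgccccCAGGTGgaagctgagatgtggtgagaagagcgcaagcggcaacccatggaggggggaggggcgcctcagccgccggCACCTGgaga

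The shared regions within 10 kb held 23 CANNTG matches, of which 9 were CAGATG and 3 CATATG, counting both strands, the shorter classes lying inside the wider one. A match is a description and no proof of binding. CANNTG was present in 9 of 10 distal windows of 200 bp and in 5 of 5 promoter windows, against 73.6% of all shared distal and 49.7% of all shared promoter windows. CAGATG was present in 5 of 10 distal windows of 200 bp, against 23% of all shared distal windows. These were the neighbouring windows of Neurod2's cluster beyond the 3' end and that of Neurog2's coding-exon region. The remaining distal windows, those upstream of Neurod2 among them, had none, so the count rests mostly on a single locus. The window of the Neurod2 region at 9043 to 9147 bases had its match outside the shared bases, which held none. In the longer lists CAGATG was present in 6 of 22 distal windows (27.3%). The share of 23% is that of the shorter lists, and none was computed over all regions of the longer lists. Between 10 and 50 kb from the genes, in the shorter lists, CAGATG was present in 2 of 9 windows (22.2%), near that share. In promoter windows CAGATG was present in 3 of 5, against 8.7% of all. The 3 were those of Neurod6, Bhlhe22 and Neurod1's coding-exon region, which counts as a promoter region through the start of Gm26755. CATATG was present in 3 of 5 promoter windows, against 1.04% of all 21346 shared promoter windows and 3.91% of RefSeq promoter windows of 300 bp. Of the other E-box classes, CAGCTG was present in 2 of 10 distal windows (19.8% of all), CAGGTG in 2 (16.2% of all) and CACGTG in 2 (3.79% of all). In promoter windows each of these was present in 0 of 5, against 12.7%, 12.2% and 7.07% of all shared promoter windows. CAGATGGC was present in 2 of the 5 promoter windows, against 1.28%, and CATATGGC in 2 more, against 0.164%.

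Each of the 4 starts open in both libraries thus held CATATGGC or CAGATGGC on the strand of the gene, against 1.45% of all shared promoter windows and 1.81% of RefSeq promoter windows on either strand. These letters were picked after the sequences of the same regions had been read, so the count describes them and is no independent support. The Neurod2 match lay 7 to 14 bases upstream of the start and met a footprint, a short stretch of few cuts inside an open region, in both libraries. The Neurod6 match lay 124 to 131 bases downstream and did so too. Neurod1's, 120 to 127 bases upstream, met a footprint in replicate 1 alone. Bhlhe22's, 3 to 10 bases downstream, met none. Of 1531 matches to these letters over all shared distal windows, 1360 were CAGATGGC, and 53.1% of the 1531 met a footprint in both libraries. For CAGATGGC alone the share was 54.8%, beside 28.7% of CAGATG matches. For CATATGGC, the letters at Neurod1 and Neurod2, it was 39.8%, beside 20.8% of CATATG matches. Which factor leaves these footprints was not tested. The 4 matches above lie in promoter regions, for which no such share was computed. In RefSeq windows, which cover other bases than the open regions, the letters were found at Neurod1 and Neurod2 and not at Neurod4, Neurod6 or Neurog2.

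Footprints in the open regions of the 6 genes were about as frequent as elsewhere. The authors' footprint lists put at least 1 in 20 of 23 regions (87%) in replicate 1 and in 24 of 27 (88.9%) in replicate 2, against 89.4% and 88.3% of all regions. Per 100 bp there were 1.08 and 1.5 footprints, against 1.38 and 1.37. Of the 23 CANNTG matches, 8 met a footprint in replicate 1, 5 in replicate 2 and 3 in both. Over all shared distal windows 32.9%, 36.9% and 24.8% of matches did. Some of the 23 matches lie in promoter regions, for which no such share was computed. The 3 matches that met a footprint in both were CATATG at Neurod2, CAGATG at Neurod6 and CAGCTG in Neurod2's cluster beyond the 3' end.

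Other bHLH genes were counted in lists by role, which were not matched for CpG content. Over all coding genes 59.3% were open in both libraries. All 7 E protein and ID genes, partners and dominant-negative inhibitors of bHLH factors, were open in both libraries, with median heights of 3.27 and 4.32. The highest were Id2 (6.03 and 5.77), the E protein gene Tcf3 (3.68 and 4.87) and Id4 (4.05 and 4.32). Tcf4, an E protein gene, held 26 of the 36 shared distal regions of that list. Of 8 HES and HEY genes, mostly repressors downstream of Notch, 5 were open in both, led by Hey2 (5.21 and 6.75), Hey1 (3.74 and 5.16) and Hes6 (3.07 and 2.97), and Hes3, Hes7 and Heyl in neither.

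Of 13 other proneural and neuronal bHLH genes, 4 were open in replicate 1, 7 in replicate 2 and 4 in both. Over all coding genes the shares were 59.6%, 64% and 59.3%, and 35.6% were open in neither. The oligodendrocyte lineage genes Olig1 (1.55 and 1.46) and Olig2 (1.13 and 1.08) were among the highest open in both. Atoh1, Atoh7 and Atoh8 were open in replicate 2 alone. Bhlhe23, Neurog3 and Nhlh1 were among the 6 open in neither. Of 17 bHLH genes of mesoderm, muscle and blood, 5 were open in replicate 1, 8 in replicate 2 and 5 in both, with median heights of 0.616 and 0.825. The highest were Mesp2 (1.11 and 1.98), Tal1 (0.616 and 1.05) and Msc (0.723 and 0.841). Mesp1, Scx and Twist2 were open in replicate 2 alone, and Hand1, Hand2 and Myf5 were among the 9 open in neither.

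Beside 59.3% of all coding genes, all 8 genes listed as known targets or partners of the 6 factors were open in both libraries. This list was not matched for CpG content either, so the comparison does not tie the open starts to the 6 factors. Their median heights were 1.63 and 1.73. Stim1, the calcium sensor of the endoplasmic reticulum, had 4.75 and 5.46. Hes6 was counted above, and Prdm8, whose product pairs with BHLHE22, had 2.22 and 3.39. Rnd2, a small GTPase gene that NEUROG2 activates in migrating neurons, had 1.78 and 1.64.

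Markers of the labelled tissue were open. Over all coding genes 59.3% were open in both libraries, and the marker lists were not matched to them for CpG content. All 5 forebrain and hippocampus genes, Emx2, Lhx2, Zbtb20 and Prox1 among them, were open in both libraries, and 1 of 5 midbrain and hindbrain genes was, En2, at 0.591 and 0.869. Of 4 progenitor genes 3 were open in both, and Eomes, the marker of intermediate progenitors, in 1 library. Of 5 interneuron genes 1 was open in both, of 4 astrocyte genes 1, and of 4 oligodendrocyte lineage genes 3.

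The genes with the most similar pattern were found by the distance over promoter height and number of distal regions in both libraries, 4 values on a log2(1 + x) scale. The nearest to Neurod2 were Nat8l (2.35 and 2.74, with 11 and 5 distal regions) and Kcnq3 (1.74 and 2.32, with 10 and 7), at distances of 0.356 and 0.44. The nearest to Neurod1 were Barx2 (1.35 and 1.77) and C1ql4 (1.18 and 1.93), to Neurod6 Slc25a27 (2.07 and 1.90) and Foxo4 (1.99 and 1.82), to Neurog2 Serpinf1 at 0.770 and Adcy7 at 0.814, both open in replicate 2 alone, and to Bhlhe22 Sh3d19 (0.899 and 1.40) and Aig1 (0.880 and 1.38). Neurod4's pattern, no promoter region and 1 distal region in each library, was shared by 902 genes, so none is singled out for it.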

How the data were processed

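Regions, footprints and per-base false discovery rates (FDR) of the cut rate of 2 DNase-seq libraries of mouse hippocampus were used. Each library's regions were made from its own alignments to mm10, per the labels' notes deposited with the samples; no source used here gives the caller, its threshold or the sequencing depth. The authors deposited a signal height per region, used to describe and rank regions, and a p-value column that is 0.01 in every footprint line, used as a limit only. The deposited per-base FDR of the cut rate, a p-value type of unit, is listed up to 0.05.

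Genes came from GENCODE M21, 1 record per symbol, and sequences from the GRCm38 (mm10) genome; RefSeq promoter windows (GRCm38.p6) matched 5 of the 6 genes. Overlaps, CpG ratios and matches to letters on both strands were computed with Python 3.11.15 and numpy 2.4.6. The overlap search alone was checked on simulated data. Alternatives were the longer lists, the higher 50% of regions, equal numbers of regions, start distances of 500 and 2500 bp, a reciprocal overlap of 50%, 50 kb flanks and each library alone. The genes and lists were chosen with earlier results of these data known; all letters searched other than CANNTG and CAGATG were added after the regions were seen. Genes named in lists are the 3 highest open in both, the first 3 by alphabet open in neither, and those open in 1 library, except that some items are not reported here; the genes most alike and neighbours within 50 kb follow the same plan. Read counts were not used here, so no intervals were computed, and the spread is that between these 2 libraries.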

Additional observations from a re-analysis of the deposited data

How the results depend on the processing

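No paired analysis was possible because there was 1 group. The count of starts open in both libraries, 4, was 3 to 6 under the alternatives, and 4 and 5 in single libraries. The 10 shared distal regions were 23 in the longer lists, 5 with the higher 50% of regions and 19 within 50 kb, 17 in either library alone, and 7 to 10 under the other settings. The median promoter height of 1.77 was 1.37 in the longer lists, 1.98 with the higher 50% of regions and 1.64 at 2500 bp, and 1.68 to 1.86 in single libraries. The excess of 7 distal regions in replicate 1 at Neurod2 was 9 in the longer lists, 8 after merging touching regions and 2 within 50 kb. The mean of 44 footprints per library in the shared regions was 78.5 in the longer lists. The 9 CAGATG matches compare with 23 for CANNTG and 3 for CATATG, letters added after the data were seen. The Neurod2 excess kept its sign under the 4 alternatives run for it. The order of the libraries in bases of low FDR at Neurod6 turned with the window, 256 against 249 within 1000 bp of the start and 257 against 506 in the body plus 10 kb. Sequencing depth is unknown, so a start without a region was not detectably open in that list and is not shown to be closed. The heights are on each library's own scale, and lists of unequal length favour replicate 2.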
